A study of Mus musculus with 4 samples.

Results

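The genes described here code for the contractile apparatus of heart muscle and for an atrial hormone, and 10 of them were chosen from measured values of these sections, because they stood out in the lung against the primary tumour. Their levels between those tissues are therefore given as a description, without a test. Of the 10 symbols, 9 have a row among the 19465 genes of the count tables (Myh6, Myl7, Myl4, Tnnt2, Tnni3, Nppa, Ttn, Ryr2 and Myoz2), and Actc1 was not analysed here. The sections came from 2 BALB/c mice that had received 100000 4T1 mammary carcinoma cells in the mammary fat pad at 8 weeks of age and were killed 28 days later. Here the mouse with the lower number in the labels is mouse A, and the other is mouse B. The primary tumour and the lung of each mouse gave 1 section each, profiled with Visium on formalin-fixed, paraffin-embedded tissue, so that each tissue has 2 sections, all sections come from animals with a tumour, and no lung of a tumour-free animal was included. The Visium assay counts unique molecular identifiers (UMIs) of gene-specific probes in barcoded spots, and each spot covers a patch of tissue in which cells of several types may lie.

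Heart muscle cells shorten through sarcomeres, in which myosin heads pull on actin filaments once calcium binds the troponin complex. Myh6 is the alpha myosin heavy chain, the motor of the atria and of the adult mouse ventricle. Myl7 and Myl4 are the regulatory and the essential myosin light chain of the atria, and Tnnt2 and Tnni3 are the cardiac troponins T and I. Ttn is the elastic filament of the sarcomere, Myoz2 is a Z-disc protein, Ryr2 is the channel that releases calcium from the sarcoplasmic reticulum, and Nppa is the precursor of atrial natriuretic peptide. In mice the atrial muscle continues along the pulmonary veins into the lung, so that lung tissue normally holds some heart muscle.

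The sequences before the start sites of Nppa and Myl7 are shown because both genes are atrial and yet differed in these lungs, Myl7 having a like ratio to Myh6 in the sections of both mice and Nppa not. Each is the run of 250 bases that ends at the annotated RefSeq start (GRCm38.p6), written 5′ to 3′ on the strand of the gene, chr4:148000472-148000721 on the plus strand for Nppa and chr11:5898783-5899032 on the minus strand for Myl7. Capitals mark letters that match a motif of heart or muscle regulators or the general TATA box, searched on both strands.
Nppa: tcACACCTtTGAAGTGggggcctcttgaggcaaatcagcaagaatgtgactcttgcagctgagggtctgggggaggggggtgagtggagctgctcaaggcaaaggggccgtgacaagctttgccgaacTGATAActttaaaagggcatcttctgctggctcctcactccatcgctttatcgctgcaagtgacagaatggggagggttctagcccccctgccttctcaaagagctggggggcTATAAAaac
Myl7: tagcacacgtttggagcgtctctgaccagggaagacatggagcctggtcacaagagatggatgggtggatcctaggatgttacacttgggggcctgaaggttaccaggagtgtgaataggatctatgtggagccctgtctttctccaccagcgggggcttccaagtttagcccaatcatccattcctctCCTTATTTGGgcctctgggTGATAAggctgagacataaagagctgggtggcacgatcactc
For Nppa the capitals are, in order, the T-box letters AGGTGT read on the opposite strand (248 to 243 bases before the start), the NKX letters TNAAGTG (241 to 235), the GATA letters TGATAA (122 to 117) and TATAAA (9 to 4). For Myl7 they are the CArG box of serum response factor (61 to 52) and TGATAA (42 to 37). Of 32841 RefSeq starts, 11.8% hold the T-box letters in the same window, 10.1% the NKX letters, 7.94% the GATA letters, 12.4% TATAAA and 1.47% a CArG box. The 9 genes have 10 starts, and besides those shown the T-box letters occur before Tnni3 and the MEF2 motif, held by 2.92% of starts, before Ttn and Myoz2. None of the 6 motifs searched is in the window of Myh6, Myl4, Tnnt2 or Ryr2, which says only that these letters are not there.

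Of 9445 spots the 9339 with over 200 genes were used, and these held 10890154 to 30240176 UMIs per section. The median per spot was 2931 UMIs in the tumour and 6555 in the lung of mouse A, and 1820 and 9174.5 in those of mouse B. Levels are UMIs per 1e+06 UMIs of the section (CPM), and the intervals are exact 95% Poisson intervals, which cover counting error only. As a background, the 1178 olfactory and vomeronasal receptor genes, which serve sensory neurons, averaged 0.737 CPM in the tumour of mouse A, 0.205 in its lung, 7.86 in the tumour of mouse B and 0.155 in its lung. The tumour of mouse B thus stood apart, and values that rest on it are read beside this background.

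Summed over the 9 genes, the level was 385 CPM (374 to 397) in the lung of mouse A and 579 CPM (570 to 588) in that of mouse B. The tumours held 40.1 (36.8 to 43.6) and 87.7 CPM (82.2 to 93.4). The lungs were above both tumours and the groups did not overlap, which the choice of genes fixes. Against 9 receptor genes of average level, the sum was 208 and 414 times as high in the lungs, 6.04 times in the tumour of mouse A and 1.24 times in the tumour of mouse B. In this last section none of the 9 genes passed the 99th percentile of the receptor genes, against 8 and 9 in the lungs of mouse A and mouse B.

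The motor and the atrial light chains were somewhat higher in the lung of mouse B than in that of mouse A. Myh6 reached 132.9 CPM (126.2 to 139.8) in the lung of mouse A and 177.3 (172.6 to 182.1) in that of mouse B, with 0.517 (7 UMIs) and 9.55 CPM (104 UMIs) in the tumours. Myl7 was at 60.4 and 73.9 CPM in the lungs and at 0.887 and 7.62 in the tumours. Myl4 was at 59.2 and 75.5 CPM in the lungs and at 5.62 and 11.02 in the tumours. For these 3 genes the lung level of mouse B was 1.33, 1.22 and 1.27 times that of mouse A, with intervals that did not overlap. Their tumour level was higher in the section with the higher receptor level. Beside Myh6 the light chains kept an even ratio in both lungs: per 100 UMIs of Myh6 there were 45.5 of Myl7 (41.4 to 49.8) in the lung of mouse A and 41.7 (39.7 to 43.8) in that of mouse B, and 44.6 of Myl4 (40.6 to 48.9) and 42.6 (40.5 to 44.7).

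The troponins were less even. Tnnt2 had 86.5 CPM (81.1 to 92.1) in the lung of mouse A and 158.4 (154.0 to 163.0) in that of mouse B, with 28.6 (387 UMIs) and 20.0 CPM (218 UMIs) in the tumours. In the tumour of mouse A this was 38.8 times the mean receptor gene, while 7 of the 9 genes lay at 0.702 to 2.41 times it. Tnni3 was at 10.7 and 17.7 CPM in the lungs and at 0.813 and 2.30 in the tumours. The lung of mouse B exceeded that of mouse A by 1.83 times for Tnnt2 and by 1.65 times for Tnni3, more than for the light chains. The lungs differed in other tissue too. Genes that mark 4T1 tumour tissue summed to 116 CPM in the lung of mouse A and 1282 in that of mouse B. Neutrophil genes summed to 76957 and 31257 CPM. The part of such tissue in the levels of the troponins was not tested. Per 100 UMIs of Myh6, Tnnt2 gave 65.1 (60.0 to 70.6) and 89.4 (85.9 to 92.9).

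Ttn, Ryr2 and Myoz2 were above the receptor genes in both lungs, and in mouse B less than 2 times the tumour level. Ttn was at 15.6 and 25.9 CPM in the lungs and at 1.77 and 16.9 in the tumours. Ryr2 was at 10.1 and 9.82 CPM in the lungs and at 0.517 and 6.15 in the tumours. Myoz2 was at 9.53 and 10.3 CPM in the lungs and at 0.591 and 5.69 in the tumours. The lung exceeded the tumour by 8.82, 19.5 and 16.1 times in mouse A and by 1.53, 1.60 and 1.81 times in mouse B, where the tumour levels of these genes were 2.15, 0.783 and 0.724 times the mean receptor gene. The excess in mouse B depended on few spots, since the ratios were 0.882, 1.07 and 1.09 once the richest 2% of spots of each section were left out. As a mean over spots of the CPM per spot, the ratios were 2.83, 8.61 and 4.58 in mouse A and 1.09, 1.14 and 1.18 in mouse B.

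Nppa departed from all of them. In the lung of mouse A it had 2 UMIs, 0.180 CPM (0.0218 to 0.650), the level of a receptor gene, while in the lung of mouse B it had 911 UMIs, 30.1 CPM (28.2 to 32.1). The tumours had 0.739 CPM (10 UMIs) and 8.45 CPM (92 UMIs), both close to their receptor mean. The intervals of the lungs lay far apart for Nppa, while for the other 8 genes the level in mouse B was 0.975 to 1.83 times that in mouse A. Per 100 UMIs of Myh6 there were 0.135 of Nppa (0.0164 to 0.490) for mouse A and 17.0 (15.8 to 18.2) for mouse B, in sections that gave 1478 and 5362 UMIs of Myh6.

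**Figure D1:**
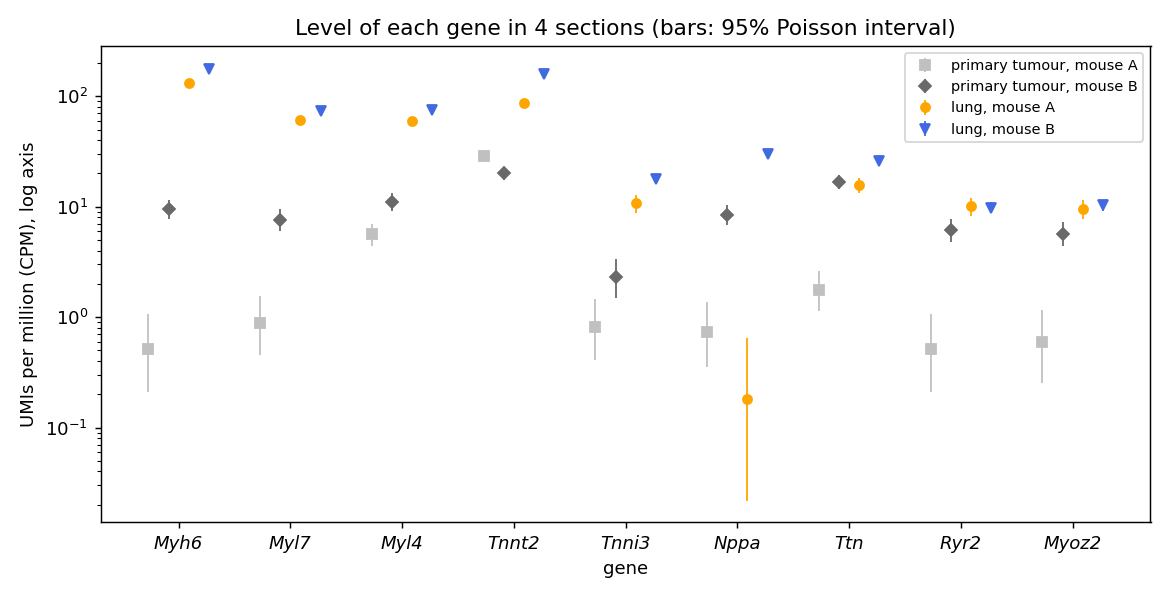
Level of each gene in the 4 sections, in CPM on a logarithmic axis, with exact 95% Poisson intervals for counting error. The lungs lie above the tumours for 8 of the 9 genes in both mice, and Nppa is at 0.180 CPM in the lung of mouse A against 30.1 in that of mouse B.

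The share of spots with a UMI depends on depth, and only part of it separated the tissues. Myh6 was found in 17.6% of the spots of the lung of mouse A and 26.1% of those of mouse B, against 0.281% and 4.26% of the tumour spots. With each spot thinned to 1000 UMIs these shares became 6.22% and 9.80% in the lungs and 0.125% and 2.29% in the tumours, so the order was kept. A UMI of any of the 9 genes was found, at 1000 UMIs, in 13.7% and 18.8% of the lung spots and in 4.43% and 16.8% of the tumour spots. By that measure the tumour of mouse B was above the lung of mouse A. There no spot held more than 6 UMIs of any of the genes, whereas lung spots reached 81 and 156 UMIs of Myh6.

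To describe the spread in space, the richest 2% of spots by summed CPM of the 9 genes were taken in each section. The lung of mouse A had 34 of them, which held 57.0% (exact binomial 55.5 to 58.4) of the UMIs of the 9 genes and 1.77% of all UMIs. Mouse B had 56 such spots in the lung, with 45.4% (44.7 to 46.2) of the UMIs of the genes and 1.11% of all UMIs. In the tumours the same share of spots held 9.96% and 11.2%, at 1 or 2 UMIs in the median spot. The median rich spot had 10074 CPM in the lung of mouse A and 21735 in that of mouse B, and the highest had 34190 and 72774. At the boundary, the last spot taken had 3824 CPM and the next one 3741 in mouse A, and 9814 and 9736 in mouse B. These values chose the spots and carry no test. Rich spots had fewer UMIs than other lung spots, 5612 against 6579 in the median of mouse A and, in that of mouse B, 5678 against 9271.

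The rich spots were gathered in patches. Here, 33 of the 34 of mouse A touched another rich spot, and 54 of the 56 of mouse B. Joined over gaps of up to 200 µm they formed 7 patches of 1 to 8 spots in mouse A, 1 of them a single shallow spot of 243 UMIs with 1 UMI of Tnnt2. In mouse B they formed 6 patches of 1 to 27 spots, the largest of which spanned 916.5 µm. Of the tumour spots that were rich by the same rule, 13 of 50 and 17 of 48 touched another.

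**Figure D2:**
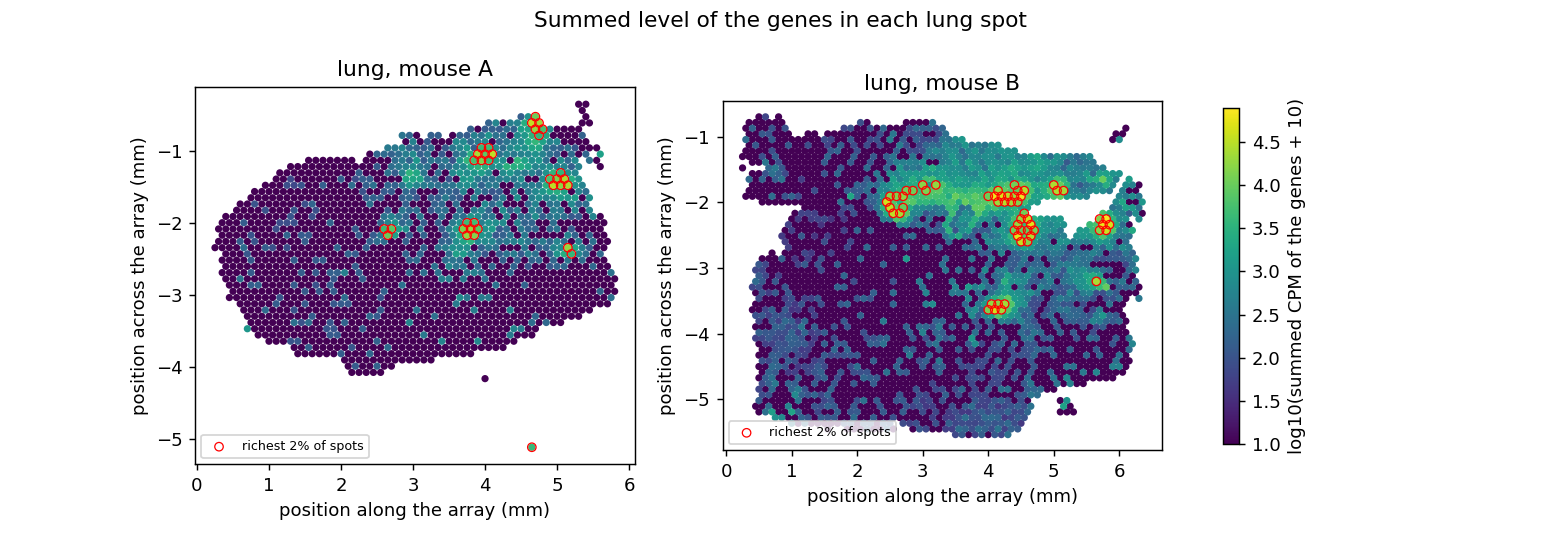
Map of the summed CPM of the 9 genes in the spots of both lung sections, axes in mm and colour on a log10 scale of CPM + 10, with the richest 2% of spots outlined. The rich spots form 7 patches in the lung of mouse A and 6 in the lung of mouse B.

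Because the genes chose those spots, each gene was also measured around the spots that were richest in the other 8. Of the UMIs of the 9 genes, 55.3% in the lung of mouse A and 44.5% in that of mouse B still fell in spots that were rich by the other genes, and 69.7% and 65.3% in those spots or the spots touching them. In the tumours 2.03% and 2.83% fell in such spots. Rich tumour spots were shallow, and those rich by all 9 genes held 0.368% and 0.592% of all UMIs. In the lung of mouse B each gene had a higher level in the spots rich in the others than in the section. In mouse A so did every gene with the exception of Nppa, which had no UMI in them. For Nppa in mouse B only 28 of the 56 spots rich in the other genes held a UMI. The correlation over spots of log CPM between pairs of genes, given as a description since spots share a section, ran from 0.339 to 0.731 over the 28 pairs without Nppa in 1697 spots of mouse A, and from 0.569 to 0.842 in 2780 spots of mouse B. Pairs with Nppa ran from 0.406 to 0.563 in mouse B, and its 2 UMIs in mouse A allow no value.

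Moran's I, which measures how alike neighbouring spots are, was high for the same genes. It was 0.614 for Myh6 in the lung of mouse A and 0.778 in that of mouse B, with 0.560 and 0.704 for Myl7 and 0.557 and 0.698 for Tnnt2. Ryr2 had the lowest values of the 8 genes, 0.177 and 0.347. The median over all genes with at least 100 UMIs was 0.0183 and 0.0460, and the 95th percentile was 0.116 and 0.277. In the tumours Tnnt2 had 0.0335 and 0.0427. Nppa had 0.630 in the lung of mouse B, close to the light chains, and 2 UMIs in that of mouse A allow no value.

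Away from the rich spots the level fell with distance up to 2000 µm. Together the 9 genes in mouse A had 12377 CPM in the rich spots, 1340 in those touching them, 531 at over 100 to 200 µm, 225 from there to 500 µm, 111 at over 500 to 1000 µm and 27.0 at over 1000 to 2000 µm. The same steps of mouse B were 23692, 3991, 1478, 710, 193 and 41.6 CPM. The touching spots were thus far below the rich ones, and levels fell at each of these steps in both lungs. Beyond 2000 µm mouse A had 12.1 CPM (3.29 to 30.9) and mouse B 58.1 (52.4 to 64.2), the latter above the 41.6 (37.8 to 45.6) of the step before. In the tumour of mouse A the spots touching a rich one had 17.1 CPM, below the 40.1 CPM of the section. In the tumour of mouse B they had 215 CPM, and the level there went from 224 to 38.3 CPM over the further steps.

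Taken around the spots rich in the other genes, Myh6 went from 4630 CPM to 599 in the touching spots and 3.88 at over 1000 to 2000 µm in mouse A, and from 7402 to 1419 and 3.11 in mouse B. Myl7 went from 2247 to 206 and 0.983 CPM in mouse A and from 3392 to 511 and 1.74 in mouse B. Ryr2 went from 198 to 27.8 and 1.98 CPM in mouse A and from 360 to 53.7 and 0.549 in mouse B. Over the 8 genes other than Nppa the touching spots kept 8.58% to 14.1% of the rich level in mouse A, and in mouse B 14.9% to 21.4%. Nppa in mouse B kept 17.8%, going from 938 to 167 CPM and then to 0.457.

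**Figure D3:**
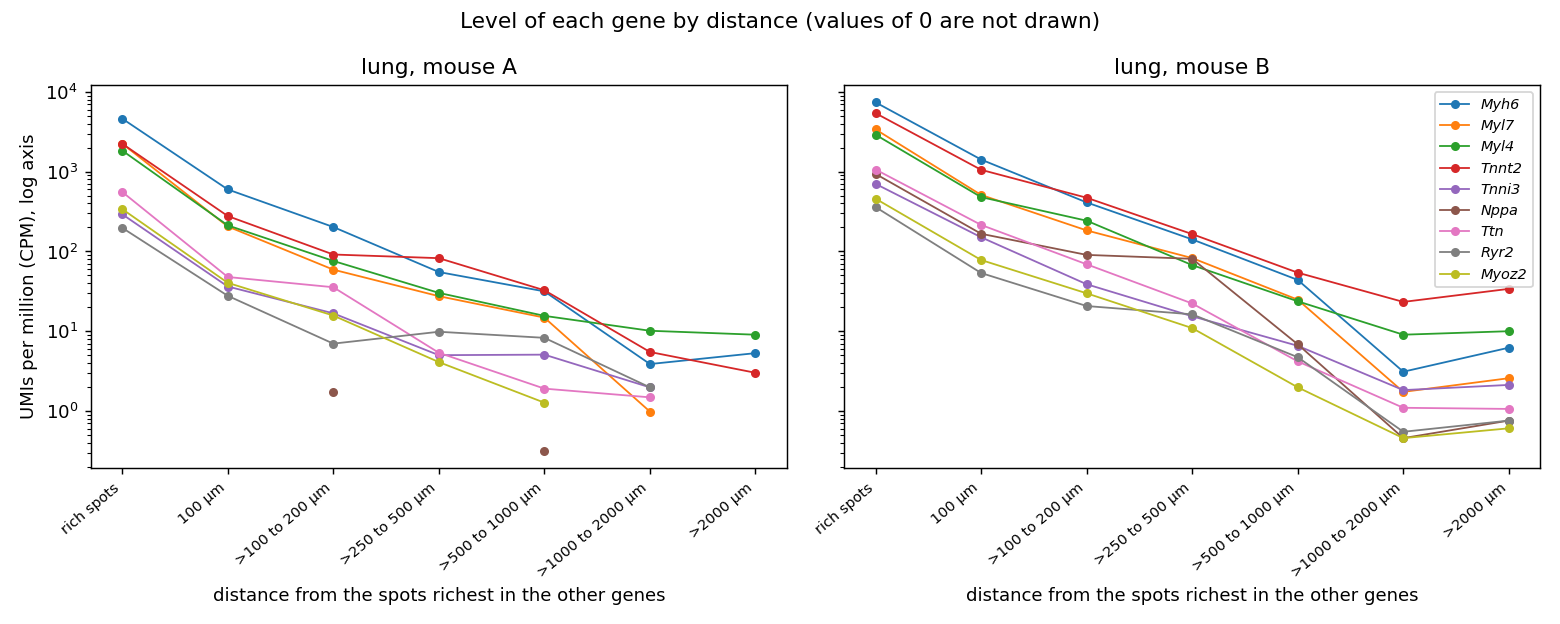
CPM of each gene by distance from the spots richest in the other genes, in both lungs, on a logarithmic axis. Myh6 goes from 4630 to 3.88 CPM in mouse A and from 7402 to 3.11 in mouse B, while Tnnt2 and Myl4 are at 5.49 to 23.3 CPM at over 1000 to 2000 µm.

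Far from the rich spots the mixture of genes was another. In the lung of mouse B Tnnt2 gave 68.1 UMIs per 100 of Myh6 in the rich spots (64.2 to 72.3) and 131 at over 500 to 1000 µm (113 to 152). It gave 750 at over 1000 to 2000 µm (523 to 1107) and 546 beyond 2000 µm (390 to 782), where its own level was 34.0 CPM (224 UMIs). Myl4 gave 36.9 (34.3 to 39.6) in the rich spots, 291 (195 to 444) at over 1000 to 2000 µm and 161 (107 to 244) beyond 2000 µm. Myl7 gave 41.5 (38.7 to 44.5) in the rich spots and, from 17 UMIs, 41.5 (22.1 to 74.6) beyond 2000 µm. In mouse A Tnnt2 gave 51.9 (46.3 to 58.1) in the rich spots and 147 (76.3 to 290) at over 1000 to 2000 µm, and Myl4 gave 40.3 (35.6 to 45.6) and 241 (134 to 453), while Myl7 gave 49.4 (44.0 to 55.5) and, from 4 UMIs, 23.5 (5.76 to 72.1). Tnni3 shifted as well, from 6.58 (4.97 to 8.57) to 47.1 (17.6 to 115) in mouse A and from 8.85 (7.73 to 10.1) to 58.8 (32.1 to 105) at that distance in mouse B. Ryr2 went from 4.35 to 47.1 (17.6 to 115) in mouse A and from 4.50 (3.72 to 5.39) to 17.6 (6.06 to 42.5) in mouse B, again at over 1000 to 2000 µm. Beyond 2000 µm Ryr2 gave 12.2 (3.76 to 30.8) in mouse B, an interval that overlaps that of the rich spots. The mixture thus changed for several genes, of which Tnnt2 and Myl4 were also the 2 genes that passed the 99th percentile of receptor genes in the tumour of mouse A.

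The level of Tnnt2 in distant lung spots was set beside 7 genes that mark 4T1 tumour tissue, among them Csf3, Mmp3 and Plau. In the highest quartile of distant spots of mouse B by these genes Tnnt2 had 43.9 CPM (39.7 to 48.3), and in the lowest quartile 28.8 (23.5 to 34.9). Myh6 had 9.41 CPM (7.55 to 11.6) and 14.5 (10.9 to 19.1) in the same spots. In mouse A both were higher in the quartile with the most tumour genes, Tnnt2 at 29.1 against 11.8 CPM and Myh6 at 36.1 against 5.64. In the tumours Tnnt2 had 26.3 CPM in the highest and 35.2 in the lowest quartile of mouse A, and 20.4 and 19.4 in those of mouse B, with overlapping intervals. The part of tumour cells in the distant Tnnt2 level was not tested.

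In the lung of mouse B Nppa was itself unevenly spread. Its 911 UMIs lay in 219 of 2780 spots, and 20 spots with at least 10 UMIs held 53.5% of them. Of these 20 spots 12 were rich spots and 8 were not, and 4 had more UMIs of Nppa than of Myh6. The spot with the most had 81 UMIs of Nppa and 21 of Myh6 among 17835 UMIs and was no rich spot. Of the 56 rich spots, 27 had no UMI of Nppa.

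Between patches the ratio of Nppa to Myh6 differed beyond counting error. The patch of 27 rich spots had 12.7 UMIs of Nppa per 100 of Myh6 (10.7 to 15.0), a patch of 6 had 17.1 (13.4 to 21.6), and a patch of 3 had 45.5 (33.9 to 60.6). The patch of 13 had 0.401 (0.0484 to 1.46), and the other patch of 6 had 0.340 (0.00858 to 1.91). Patches with much and with little Nppa thus lay in one section, and the latter held 2 and 1 UMIs of Nppa beside 499 and 294 of Myh6. The single rich spot that stood alone had no Nppa beside 47 UMIs of Myh6, which allows up to 8.16 per 100. The 6 patches of mouse A with Myh6 had no UMI of Nppa, with upper limits of 1.35 to 13.6 per 100 of Myh6. Along the section of mouse B, in steps of 500 µm, the ratio was 2.65 (1.47 to 4.41) at 2500 to 3000 µm. It was 18.3 (14.1 to 23.5) at 3000 to 3500 µm and 59.4 (51.1 to 68.9) at 3500 to 4000 µm. The next steps had 13.0 (11.2 to 15.0) at 4000 to 4500 µm and 10.3 (8.19 to 12.9) at 4500 to 5000 µm. A second high of 29.8 (24.1 to 36.7) lay at 5000 to 5500 µm, before 12.6 (10.3 to 15.2) at 5500 to 6000 µm.

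When the patches of mouse B were parted by their Nppa, a division made after the values were seen, the pooled ratios of the light chains and Ttn had overlapping intervals. The 2 patches with under 1 UMI per 100 of Myh6 and the 3 with over 10 had 44.5 (39.2 to 50.5) and 40.8 (37.5 to 44.4) of Myl7, 35.3 (30.7 to 40.5) and 37.4 (34.2 to 40.8) of Myl4, and 14.0 (11.4 to 17.1) and 13.6 (11.9 to 15.5) of Ttn. Tnnt2 had 76.8 (69.0 to 85.5) and 64.3 (59.7 to 69.1). Myoz2 had 8.07 (6.16 to 10.4) in the patches with little Nppa and 4.59 (3.66 to 5.70) in the others, whose intervals do not overlap. Nppa went from 0.378 to 16.5. Within the pair of patches with little Nppa Myl7 itself was uneven, at 54.1 per 100 of Myh6 in the patch of 13 spots (270 UMIs) and 28.2 in the patch of 6 (83 UMIs).

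**Figure D4:**
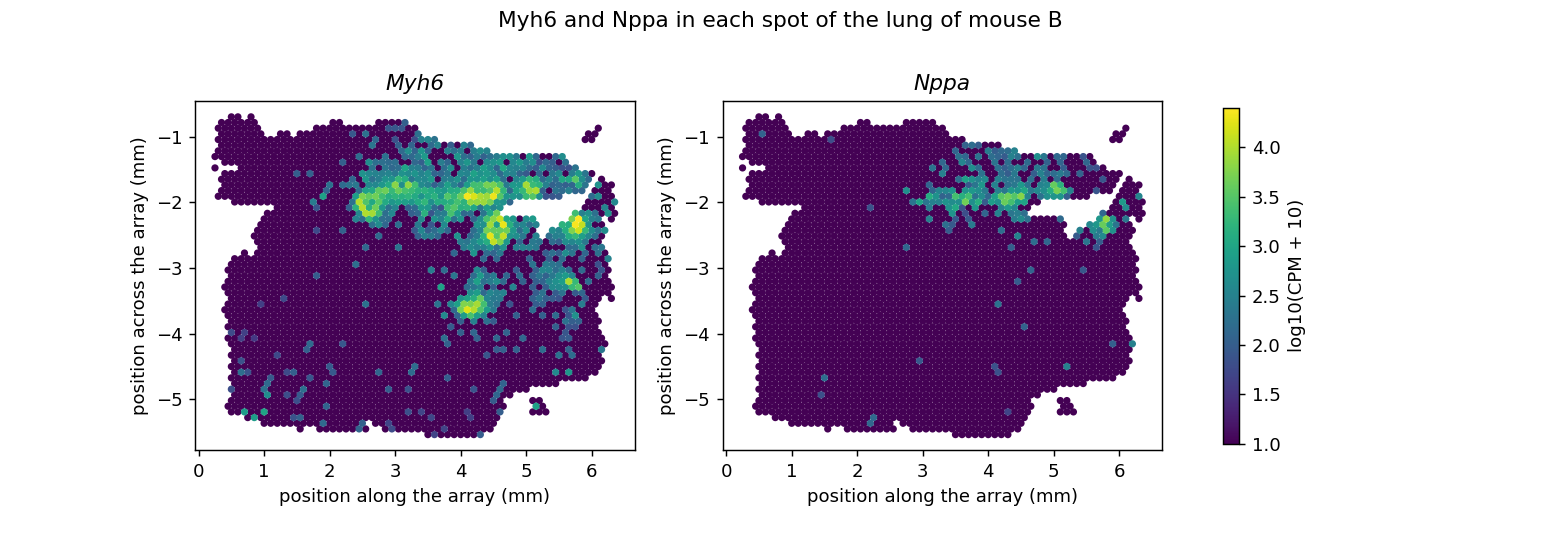
Map of the CPM of Myh6 and of Nppa per spot in the lung of mouse B, axes in mm and colour on a log10 scale of CPM + 10. Patches with much Myh6 are seen with much and with little Nppa, and 27 of the 56 rich spots have none.

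Genes outside the 9 were compared between the rich spots and lung spots at least 500 µm from any of them, on UMIs summed per class and lung (n = 2 lungs; 34 and 56 rich against 1133 and 2012 distant spots), with edgeR's quasi-likelihood test and Benjamini-Hochberg adjustment. The question was which other genes lie where the cardiac genes are. Of 12571 genes tested, 117 (0.931%) passed an adjusted p of 0.05, all of them higher in the rich spots, and 109 of these are not among the 9. With the mouse as a block 621 genes passed (4.94%), 509 higher (4.05%) and 112 lower (0.891%). No gene was called lower by edgeR without the block or by DESeq2, while 40 were lower at an unadjusted p under 0.05. Without the rich spots of mouse B 77 genes passed, 73 of them shared. With the richest 5% of spots taken no gene passed, while 370 had an unadjusted p under 0.05. Nppa was left out by the filter on low counts, and the other 8 genes are not read here, since they chose the spots.

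The contractile and structural genes of heart muscle rose with them. Of 19 tested genes of a list of further sarcomere genes 15 were higher (17 with the block), and the median of their log2 fold changes was 6.73, beside -0.11 for the whole table. Tcap, the titin cap of the Z-disc, had 132 UMIs (669.6 CPM) in the rich and 50 UMIs (6.61 CPM) in the distant spots of mouse A, and 309 (920.8 CPM) and 95 UMIs (3.93 CPM) in those of mouse B. Its log2 fold change was 7.19 ± 0.65 (SE, edgeR adjusted p = 0.00171), 101 and 234 times in the 2 lungs. Actn2, the alpha-actinin of the Z-disc, rose by 7.85 ± 0.59 (edgeR adjusted p = 0.00122). Tnnc1, the troponin C of heart and slow muscle, and Mybpc3, the cardiac myosin-binding protein C, rose by 6.73 and 4.71 (edgeR adjusted p = 0.00279 and 0.0459). Myh7 and Nebl, the beta myosin heavy chain and nebulette, did not pass, with log2 fold changes of -0.35 ± 0.70 and 0.21 ± 0.58 (edgeR adjusted p = 1.0 for both). Myh7 had 45.7 CPM in the rich and 49.4 in the distant spots of mouse A, and 17.9 and 23.3 in those of mouse B.

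Genes of calcium handling and excitation were higher in 8 of 15 tested (13 with the block), with a median of 4.16. Sln, sarcolipin, an inhibitor of the calcium pump that is typical of atrial muscle, rose by 8.68 ± 0.79 (edgeR adjusted p = 0.00171), with 32 rich and 4 distant UMIs in mouse A and 177 and 25 in mouse B. Pln, phospholamban, the related inhibitor, rose by 7.83 ± 0.78 (edgeR adjusted p = 0.00239), and Casq2, the calcium store of the reticulum, by 7.89 ± 0.64 (edgeR adjusted p = 0.00122). Atp2a2, the pump itself, was 9.63 and 9.48 times as high in the rich spots but passed with the block only (edgeR adjusted p = 0.137 without it and 8.19e-53 with it). The pacemaker channel gene Hcn4 had no UMI in the rich spots of either lung, where the floor of 3 UMIs is 15.2 and 8.94 CPM.

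Energy metabolism of striated muscle was the list with the largest share, 11 of 12 genes (12 with the block) and a median of 6.07. Ckm, the creatine kinase of muscle, had 471.7 CPM in the rich and 1.59 in the distant spots of mouse A, and 777.7 and 1.70 in those of mouse B, a log2 fold change of 8.54 ± 0.62 (edgeR adjusted p = 0.00122). Cox8b, a subunit of cytochrome oxidase in heart and skeletal muscle, rose by 7.16 (edgeR adjusted p = 0.00623), and its relative Cox6a2 was 46.1 and 86.5 times as high (edgeR adjusted p = 0.00239). Pdk4 and Cpt1b, which turn the cell to fatty acids, rose by 4.28 and 4.42 (edgeR adjusted p = 0.0303 and 0.0247). Summed over the list the rich spots exceeded the distant ones by 46.0 times in mouse A and 72.0 times in mouse B.

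Some genes that tell atrium from ventricle were among the calls, where 0.931% of all tested genes passed (4.94% with the block). Of 10 tested atrial genes outside the 9, Sln and Kcnj3, a subunit of the acetylcholine-gated potassium channel, were called (7 with the block), and Kcnj3 was at least 89.6 times and 243 times as high. Of 5 tested ventricular genes Pln and Myl3, the ventricular essential light chain, were called (3 with the block), and Pln is found in the atria as well. Myl3 rests on 10 and 6 rich UMIs, at least 128 times and 432 times the distant level, and was called in 3 of 8 alternative settings. Myl2, the ventricular regulatory light chain and partner of Myl3, had no UMI in the rich spots of either lung, nor had Nppb, Irx4, Hey2 or the atrial gene Bmp10.

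Transcription factors of the heart, 12 in the list, summed to 243 CPM in the rich and 77.8 in the distant spots of mouse A. In mouse B they summed to 375 and 43.4 CPM. Tbx20 had 6 rich UMIs and 1 distant UMI in mouse A and 28 and 16 in mouse B, a rise of 6.96 ± 0.89 (edgeR adjusted p = 0.00756), and Hand2 had 6 and 7 rich UMIs against 0 and 3 (edgeR adjusted p = 0.017). These were the 2 of 7 tested factors that were called (5 with the block). Nkx2-5 had no UMI in the rich spots of mouse A and 8 in those of mouse B. Tbx5 was at 76.1 against 37.3 CPM in mouse A and at 119.2 against 19.4 CPM in mouse B. Without the block it did not pass (log2 fold change 1.73, edgeR adjusted p = 0.527).

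Markers of other tissue were read in the same fit. Of 9 tested skeletal muscle genes 3 rose, Myl1, Acta1 and Atp2a1, with log2 fold changes of 8.43, 7.60 and 5.74 (edgeR adjusted p = 0.00122, 0.0234 and 0.0489; 4 with the block). The heavy chains that define fast skeletal fibres, Myh1, Myh2 and Myh4, had no UMI in the rich spots of either lung, and Acta1 is also made by heart muscle. Of 8 smooth muscle genes 1 rose, Actg2 by 2.88 (edgeR adjusted p = 0.027; 6 with the block). Of 4 adipocyte genes Cfd and Fabp4 rose, by 5.58 and 4.42 (edgeR adjusted p = 0.00181 and 0.0303; 3 with the block). Plin1, which coats fat droplets, was at 5.07 CPM in the rich and 0.925 in the distant spots of mouse A and at 11.9 and 0.497 in those of mouse B, from 1 and 4 rich UMIs. Adipoq, the hormone adiponectin, had no rich UMI in mouse A and 2 in mouse B, 5.96 against 0.414 CPM. Of 7 airway genes Reg3g and Bpifb1 rose, by 4.26 and 3.71 (edgeR adjusted p = 0.01 and 0.0173; 4 with the block), and summed airway genes were 1.98 and 2.77 times as high in the rich spots. The 7 alveolar, 7 tumour, 6 endothelial, 6 neutrophil, 4 red blood cell, 3 mesothelial and 1 nerve genes tested gave no call in edgeR without the block, where 1 was higher and 1 lower at an unadjusted p under 0.05, and none in DESeq2. With the block 4 of the tumour genes were lower, 2 of the alveolar genes lower, 1 endothelial gene higher and 1 lower, and 1 red blood cell gene higher. Alveolar genes summed to 0.864 and 0.587 times the distant level, and 4T1 genes to 0.964 and 0.516 times. The part of airway, fat or smooth muscle tissue near the patches in these results was not tested.

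**Figure D5:**
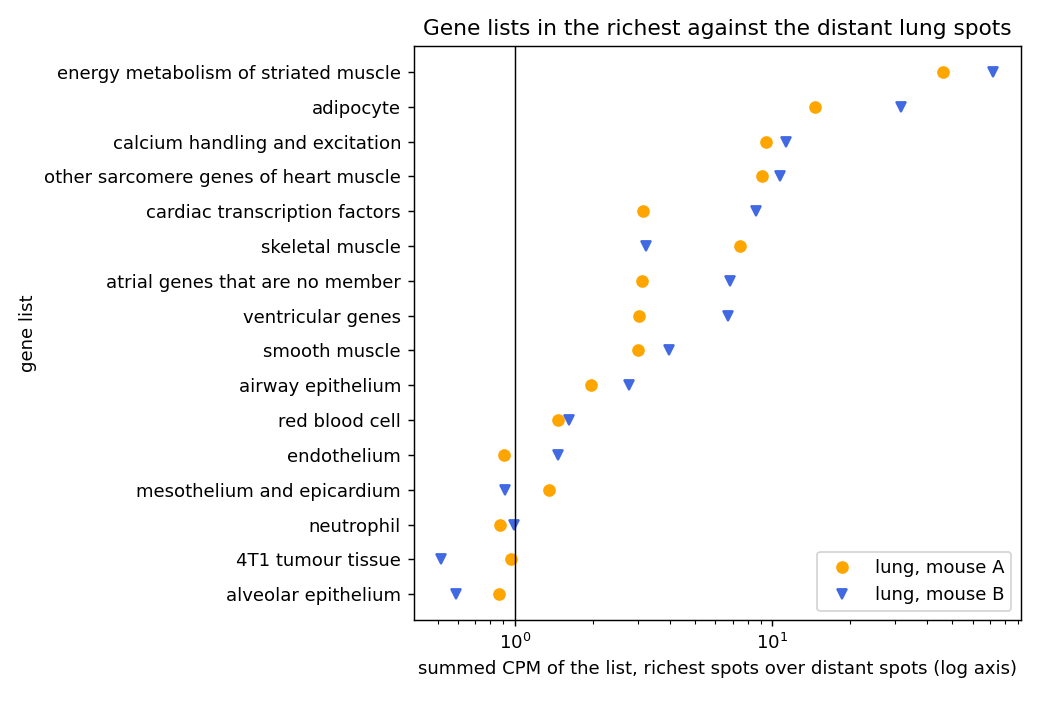
Summed CPM in rich over distant lung spots for each gene list, on a logarithmic axis, 1 point per lung, without the nerve list. Energy genes of striated muscle lie at 46.0 and 72.0 times, adipocyte genes at 14.7 and 31.5 times, and alveolar and neutrophil genes below 1 in both lungs.

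Among all genes the largest rises outside the 9 were those of Myl3, Sln, Eef1a2, Mybphl and Ckm. Eef1a2, the elongation factor of muscle and nerve, rose by 8.67 ± 0.57 (edgeR adjusted p = 0.00122), and Mybphl, a myosin-binding protein of the atria, was at least 141 times and 396 times as high. Of the 109 called genes outside the 9, 44 stand on one of the lists, which were chosen with earlier results of these data known. The decreases with the smallest p, of which none passed, included Plxnb1 with a log2 fold change of -2.18 and Retnla with -1.69 (edgeR adjusted p = 0.53 and 0.673; 0.00295 and 1.85e-14 with the block).

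The genes whose level over spots was most like the sum of the 9 were sought among 9960 genes with at least 100 UMIs in each lung. By the lower of both lungs' correlations these were Tcap (0.585 in mouse A and 0.627 in mouse B), Ckm (0.522 and 0.635), Tnnc1 (0.507 and 0.599), Hspb7 (0.492 and 0.680), Csrp3 (0.467 and 0.549), Cox6a2 (0.467 and 0.600), Atp2a2 (0.427 and 0.457), Fabp3 (0.408 and 0.539), Cox7a1 (0.391 and 0.499) and Popdc2 (0.354 and 0.550). The median gene had 0.0029 and -0.0171. All but Popdc2 were on one of the lists, which were chosen with earlier results of these data known. Of these genes Atp2a2 had high levels in every section, 338 to 670 CPM in the lungs and 451 and 356 in the tumours, while Hspb7 had 26.6 and 44.5 CPM in the lungs and 2.51 and 9.27 in the tumours.

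Between whole sections of lung and primary tumour (n = 2 each), 1139 of 15267 genes passed (7.46%), 963 higher in the lung (6.31%) and 176 lower (1.15%), and with the mouse as a block 1817 (11.9%), 1400 higher (9.17%) and 417 lower (2.73%). Without the tumour of mouse B, 1251 passed, 750 of them shared. Without the tumour of mouse A 6604 passed, and without the lung of mouse B 2519. Of 18 further sarcomere genes 4 were higher, of which Des, desmin, rose by 4.07 ± 0.50 (edgeR adjusted p = 0.00419), Myh7 by 3.86 ± 0.89 (edgeR adjusted p = 0.0313), Nebl by 3.82 ± 0.93 (edgeR adjusted p = 0.0396) and Tcap by 2.77 ± 0.72 (edgeR adjusted p = 0.0498). Tcap passed in 8 of 9 alternative settings and the other 3 in all 9. Myh7 and Nebl were thus called between the tissues and not between the spot classes, with 124 and 60.9 CPM of Nebl in the lungs and 1.26 and 16.1 in the tumours.

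Each of the remaining cardiac lists gave 1 or 2 calls between the tissues without the block. Calcium handling had 1 of 15 higher (Kcnq1), atrial genes 2 of 10 (Tbx5 and Dkk3), ventricular genes 2 of 5 (Myh7 and Kcnj2), cardiac transcription factors 1 of 10 (Tbx5) and energy metabolism 2 of 12 (Cox6a2 and Hspb7), against 6.31% of all genes. Cox6a2 rose by 3.79 ± 0.66 (edgeR adjusted p = 0.0117), with 30.7 and 39.5 CPM in the lungs and 1.11 and 5.23 in the tumours. Genes of the lung epithelium and of other cell types moved with the same contrast. Higher were 7 of 7 alveolar, 6 of 7 airway, 5 of 8 smooth muscle, 5 of 6 endothelial and 5 of 6 neutrophil genes, and 1 of 7 tumour genes was lower. With the block these were 7 of 7 alveolar, 7 of 7 airway, 6 of 8 smooth muscle, 5 of 6 endothelial and 4 of 6 neutrophil genes higher and 6 of 7 tumour genes lower. None of 15 skeletal muscle, 5 adipocyte, 5 mesothelial and 3 nerve genes was called by edgeR without the block, while 2 were higher and 3 lower at an unadjusted p under 0.05 and DESeq2 called 3 higher and 5 lower. With the block 1 of the adipocyte genes, Cfd, was called higher (edgeR adjusted p = 0.00287). Of 4 red blood cell genes 1 was higher (3 with the block). In whole sections, more heart muscle and more RNA per muscle cell cannot be told apart.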

How the data were processed

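UMI counts per gene and spot were deposited by the authors as written by Space Ranger 2.0.0, with mm10 as the build in the submitters' processing notes and no normalization. A spot needed over 200 genes, a limit that took out 106, each of them in the tumour of mouse A. CPM was computed per section, spot, ring and class. The genes and lists were chosen with earlier results of these data known. As Actc1 was not analysed here, each gene was ranked by the other 8. Log CPM of a spot is log(1 + CPM/100). Summed counts were tested in R 4.3.3 with edgeR 4.0.16 (TMM scaling, filterByExpr, the quasi-likelihood test and a threshold of 0.05 on the p adjusted after Benjamini-Hochberg), with DESeq2 1.42.0 as an alternative. The steps were tested on simulated data. For edgeR the simulated counts had the same spread for every gene and no difference between mice. They therefore do not show how far the calls hold in these sections. Python 3.11.15, numpy 2.4.6, pandas 2.3.3, scipy 1.17.1 and matplotlib 3.10.9 were used for the rest. Spots were not searched for doublets and not deconvolved.

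Both tissues, and both classes of lung spots, come from the same 2 animals, so the mouse pairs them. Deviations of sums of the same mouse from their group means had a correlation of -0.293 between tissues and of 0.453 between spot classes. With 2 sections a tissue, an exact permutation test cannot reach 0.05, and p-values rest on edgeR's sharing of spread over genes. Sections of 1 animal each measure the spread between these animals only. Genes named are the members; of each list up to 4 with the largest change, and those needed to check a cell type; the 10 genes most like the members over spots; and the 5 largest increases and decreases between rich and distant spots. Alternatives were another tool, no filter on low counts or spots, the block, other shares of rich spots, ranking by UMIs, all other spots as the comparison, TMM scaling, thinning and leaving out each section. Sequences are those of RefSeq (GRCm38.p6). Some results of the lists are not reported here.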

Additional observations from a re-analysis of the deposited data

Results flagged for a closer look

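Nppa was the one gene of the 9 whose measured ratio of lung over primary tumour lay below 1 in one mouse and above 1 in the other, and in mouse A the direction was not set beyond counting error. Its log2 ratio of lung over primary tumour was -2.04 in mouse A (0.180 against 0.739 CPM, from 2 and 10 UMIs, a ratio of 0.243 with an interval for counting error of 0.0259 to 1.14 that includes 1) and 1.83 in mouse B (30.1 against 8.45 CPM, from 911 and 92 UMIs). The difference between the mice was not tested, as each mouse gave 1 section per tissue. The tumour levels lay at 1.00 and 1.07 times the mean receptor gene of their section, and the part of that background in the ratios was not tested.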

How the results depend on the processing

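The comparison of lung with primary tumour called 1139 genes, against 3827 by DESeq2, 2022 with no filter on low counts, 1817 with the mouse as a replicate block and 2565 with the crossed pairing of mice, which was added after the correlation of -0.293 was seen. With 1 section left out the count ran from 883 to 6604, and it passed 1.5 times the main count without the primary tumour of mouse A (6604) and without the lung of mouse B (2519). Between rich and distant spots, 117 genes were called, against 242 by DESeq2, 232 with no filter, 621 with the replicate block, 68 with spots ranked by UMIs and 0 at the richest 5% of spots, where 370 had an unadjusted p under 0.05. With 1 class of a lung left out it ran from 77 to 167, being 77 without the rich spots of mouse B. In these fits the lone sum is assumed to vary like the others. Of 47 calls of listed or leading genes between rich and distant spots the block removed none. Against all other spots 8 of them no longer passed, with spots ranked by UMIs 15, and at the richest 5% of spots all 47. Of 40 such calls between lung and primary tumour the block removed 1.

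The summed CPM, in the order tumour and lung of mouse A, tumour and lung of mouse B, became 36.2, 169, 78.3 and 320 without the richest 2% of spots, and 49.9, 436, 184 and 931 as a mean over spots. Scaled by TMM, the lung of mouse A, the tumour and the lung of mouse B had 509, 68.0 and 606 CPM. The share of UMIs in the rich spots was 43.6% and 30.3% at 1% of spots, 72.8% and 69.8% at 5%, and 47.9% in mouse B by UMIs. In rich or touching spots lay 62.4% and 52.8% at 1%, 82.2% and 79.4% at 5%, and 67.6% and 60.3% with spots ranked by Myh6 alone. Thinned to 1000 UMIs, 4.43%, 13.7%, 16.8% and 18.8% of spots had a UMI of any of the genes. The lung over tumour ratio of Ttn in mouse B reversed, from 1.53 to 0.882, without the richest 2% of spots. The cause of these changes was not tested. At this depth, 3 UMIs in the rich spots equal 15.2 and 8.94 CPM, the limit for a gene with no UMI there.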
